A study of Mus musculus with 8 samples.

Results

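The genes described here are 8 forkhead transcription factors of the limb mesenchyme, *Foxc1*, *Foxc2*, *Foxd1*, *Foxf1*, *Foxf2*, *Foxp1*, *Foxp2* and *Foxq1*, taken by symbol from the 28001 features of 8 single-cell libraries of mouse forelimb. All 8 were found, and each had UMIs (unique molecular identifiers, 1 per captured transcript) in every library. Of 57469 cell barcodes, 53085 had 3000 or more UMIs and no more than 10% mitochondrial UMIs, and 51287 of these gave the library levels below. For these levels, cells of epithelial-, myogenic-, endothelial-, immune-, erythroid- and glial-like clusters were left out of the whole limb libraries. From the sorted libraries only cells of epithelial-like clusters were left out. The test of sorted against whole limb cells left out all these classes on both sides. The sorted libraries held tdTomato+ cells of C57BL/6J embryos with the alleles Hic1CreERT2/CreERT2 and Rosa26LSLtdTomato/tdTomato, whose dams were gavaged with 7.5 mg of tamoxifen at embryonic day 10. *Hic1*, which encodes a transcriptional repressor, drives the Cre, so that tdTomato marks cells in which it was active at that time and their descendants. There was 1 sorted library each for E11.5, E12.5, E13.5 and E14.5, and at E16.5 1 for a proximal segment (elbow with the adjoining ends of upper arm and forearm) and 1 for a distal segment (end of the forearm with the hand). The other libraries, whole 1 and whole 2, held lineage-negative cells of entire E11.5 limbs, tdTomato+ and tdTomato- together by their labels, with the same alleles. Limbs of several embryos were pooled, cells with blood or endothelial surface markers were gated out, and the v2 reagent kit was used up to E13.5 and v3 afterwards.

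Forkhead proteins bind DNA through a winged-helix domain. Foxc1 and Foxc2 are close relatives known for their part in skeletal and vascular development, Foxf1 and Foxf2 are known as mesenchymal effectors of hedgehog signalling, and Foxd1 is best known in kidney stroma and as a marker of a dermal fibroblast lineage. Foxp1 and Foxp2 are repressors that can pair with each other and with Foxp4, and Foxq1 is known from hair and epithelial cells. In the limb bud, *Hoxa13* and *Hoxd13* mark the distal part that forms the hand, *Meis1* and *Meis2* the proximal part, *Hand2* the posterior and *Alx4* the anterior mesenchyme.

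Several of the 8 genes are neighbours in the genome (GENCODE annotation of GRCm38). *Foxq1*, *Foxf2* and *Foxc1* follow each other on the plus strand of chromosome 13, at chr13:31556134-31560976, chr13:31625816-31631403 and chr13:31806633-31812476, with 64839 and 175229 bases between them. *Foxf1* (chr8:121084386-121088144) and *Foxc2* (chr8:121116171-121118895) are a second pair of neighbours, 28026 bases apart on the plus strand of chromosome 8. *Foxd1* stands apart on chromosome 13 (chr13:98354242-98359305, plus strand), and *Foxp1* (chr6:98925338-99522721, minus strand) and *Foxp2* (chr6:14901349-15441977, plus strand) are long genes of chromosome 6. All 8 are annotated as protein coding. An opposite-strand gene, A530084C06Rik, overlaps 3200 of the 4843 exonic bases of *Foxq1* but not its 3′ end, and had between 0 and 0.279 CPM (the usual per-million scale, a gene's UMIs scaled to a fixed total of UMIs). The same-strand gene Gm20696 shares 300 of 13751 exonic bases with *Foxp1*, so reads from there may be split between them.

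The 250 bases before the annotated start (RefSeq, GRCm38.p6) are shown for *Foxf2* and *Foxc1*, which are neighbours with different patterns, and for *Foxd1*, whose level at E16.5 was highest in the same cluster in both segments. The windows are chr13:31625566-31625815, chr13:31806396-31806645 and chr13:98353995-98354244, all on the plus strand, with CG pairs in capitals.
Foxf2: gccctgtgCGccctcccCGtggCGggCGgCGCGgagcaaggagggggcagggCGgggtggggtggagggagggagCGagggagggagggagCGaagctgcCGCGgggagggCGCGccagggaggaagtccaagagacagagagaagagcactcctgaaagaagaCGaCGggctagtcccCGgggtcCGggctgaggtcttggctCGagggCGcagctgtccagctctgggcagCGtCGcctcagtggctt
Foxc1: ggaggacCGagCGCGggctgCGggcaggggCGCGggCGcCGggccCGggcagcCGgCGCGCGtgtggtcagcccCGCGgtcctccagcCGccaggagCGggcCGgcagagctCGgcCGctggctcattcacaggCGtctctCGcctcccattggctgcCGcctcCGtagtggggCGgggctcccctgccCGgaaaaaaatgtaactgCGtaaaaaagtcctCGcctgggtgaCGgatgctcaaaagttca
Foxd1: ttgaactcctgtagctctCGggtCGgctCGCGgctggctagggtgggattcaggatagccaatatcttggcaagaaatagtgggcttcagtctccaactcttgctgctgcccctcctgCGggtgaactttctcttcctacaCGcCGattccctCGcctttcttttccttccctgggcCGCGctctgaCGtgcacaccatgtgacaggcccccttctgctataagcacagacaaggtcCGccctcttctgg
The *Foxc1* window held 29 CG pairs, that of *Foxf2* 21 and that of *Foxd1* 12, against a median of 6 over 32851 promoter windows. GC content was 70.8%, 71.6% and 57.2%, with a median of 52.4% over all windows. Searched on both strands, the forkhead motif GTAAACA (in 3.17% of all windows) and the Gli motif TGGGTGGTC (0.225%) had no match in the 3 windows, and the E-box CAGCTG (13%) matched in that of *Foxf2* alone. The table used held windows for 4 of the 8 genes.

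The cells used numbered between 3165 (E11.5) and 10173 (E16.5 proximal) per library, with median depths from 6788 to 17911 UMIs. No 2 libraries shared more than 48 barcodes. As a check of the labels, tdTomato was at 431 to 1410 CPM in the sorted libraries and at 3.77 and 4.30 CPM in whole 1 and whole 2, and *Hic1* at 23.7 to 38.0 against 0.771 and 0.785 CPM. Each sorted group was 1 library, so intervals for its values are exact 95% intervals for counting error only, and in sums over cells fewer expressing cells and less RNA per cell cannot be told apart. UMIs were not divided by gene length, so levels are compared within a gene.

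*Foxp1* gave the most UMIs of the 8 genes in every library and was seen in the most cells. With cells thinned to 3000 UMIs, 34.9% of E11.5, 33.9% of E14.5 and 33.7% of E16.5 distal sorted cells had a *Foxp1* UMI, against 14.9% at E16.5 proximal and 17.6% and 17.4% in whole 1 and whole 2. In CPM, *Foxp1* was at 166, 132, 143 and 193 in the sorted libraries from E11.5 to E14.5, in order, and at 59.3 in the proximal and 196 in the distal segment of E16.5. Both whole limb libraries were near each other, at 70.4 and 70.3 CPM. The proximal segment and the whole limb libraries were thus the lowest for this gene, and the 2 highest libraries, E14.5 and the distal segment, had overlapping intervals.

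*Foxp2* followed with 50.5, 82.3, 93.8, 68.3, 18.1 and 71.4 CPM in the same sorted libraries and 25.2 and 26.0 CPM in whole 1 and whole 2. It was highest at E13.5 and lowest at E16.5 proximal, and only whole 1 and whole 2 had overlapping intervals. *Foxc1* was at 23.7, 22.1, 32.0, 31.2, 15.3 and 20.4 CPM in the sorted libraries and at 11.5 and 15.2 CPM in whole 1 and whole 2. The intervals of E13.5 and E14.5, its highest libraries, overlapped, as did those of E11.5 and E12.5, of E12.5 and the distal segment, and of the proximal segment and whole 2. *Foxc2* had a single high point, 11.1 CPM at E13.5, after 2.86 and 4.77 CPM in the earlier sorted libraries. It was at 4.60 CPM in the E14.5 library, at 3.27 and 1.498 CPM in the proximal and distal segments and at 1.11 and 1.61 CPM in whole 1 and whole 2.

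The other 4 genes were scarce before E14.5. *Foxd1* was between 0.331 (E13.5) and 1.65 CPM (whole 2) in 6 libraries and at 12.2 and 13.1 CPM in the E16.5 proximal and distal libraries. *Foxf2* was at 0.159, 0.520, 0.617, 1.93, 0.302 and 3.23 CPM in the sorted libraries, and *Foxq1* at 0.762, 0.769, 0.947, 3.41, 0.643 and 3.83 CPM. Both were thus highest in the E16.5 distal and E14.5 libraries and low in the E16.5 proximal one. *Foxf1* was between 0.110 CPM (E13.5, 5 UMIs) and 1.17 CPM (E16.5 proximal, 232 UMIs). For these 4 genes 2.49% or fewer of the cells of a library had a UMI at 3000 UMIs per cell.

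**Figure D1:**
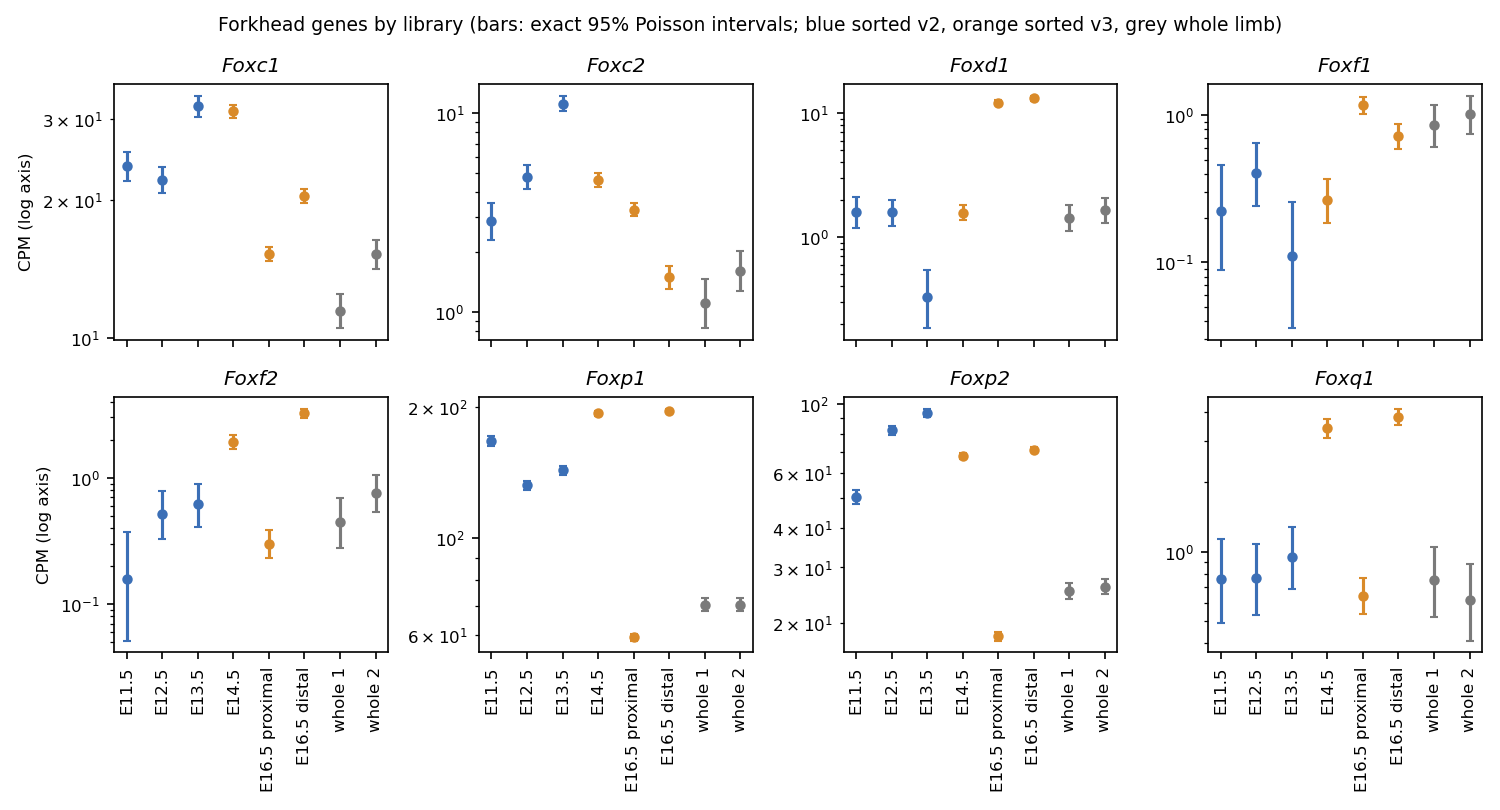
CPM (log axis, own range for each gene) of the 8 forkhead genes in the 6 sorted libraries (blue, v2 kit; orange, v3 kit) and both whole limb libraries (grey), with exact 95% Poisson intervals as bars. *Foxp1*, *Foxp2*, *Foxf2* and *Foxq1* sit lower at E16.5 proximal than at E14.5 or E16.5 distal, while *Foxd1* is at 12.2 and 13.1 CPM in both E16.5 libraries and below 2 CPM elsewhere.

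The first test asked where in the E11.5 limb each gene was transcribed. Cells of whole 1 and whole 2 with 2 or more UMIs of *Hoxa13* and *Hoxd13* and none of *Meis1* and *Meis2* (1154 and 1110 cells) were set against those with the reverse (1022 and 1153 cells). *Foxp2* was at 3.73 CPM in the distal and 63.0 CPM in the proximal cells of whole 1, and at 3.69 and 58.0 CPM in those of whole 2, which is 16.9-fold (12.6 to 23.1) and 15.8-fold (11.6 to 21.8) lower distally. *Foxp1* was at 33.2 against 122 CPM in whole 1 and at 30.6 against 117 CPM in whole 2. *Foxc1* was at 1.94 against 20.5 CPM in whole 1 and at 4.59 against 19.7 CPM in whole 2. Distal and proximal values did not overlap for any of these 3 genes.

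By edgeR's quasi-likelihood test with library as a block, 53.9% of 12252 genes tested were called at an adjusted p (Benjamini-Hochberg) under 0.05 in either direction, and 5 of the 6 forkhead genes tested were among them. With such a share of all genes called, a call alone says little, and the sizes carry the description. The log2 fold change of distal over proximal cells was -3.99 for *Foxp2* (SE 0.12, adjusted p = 5.88e-226), -2.60 for *Foxc1* (SE 0.16, adjusted p = 2.28e-55) and -1.87 for *Foxp1* (SE 0.06, adjusted p = 3.74e-184). For *Foxc1* the ratio was 0.0945 (0.0601 to 0.143) in whole 1 and 0.233 (0.1695 to 0.3155) in whole 2, so the libraries differed. Its log2 fold change was -3.22 in whole 1 alone and -2.00 in whole 2 alone, further apart than its edgeR SE. The SEs and p-values of edgeR rest here on spread pooled over genes (common coefficient of variation 1.785%). They thus do not measure the spread of a single gene between libraries. By DESeq2 the SE of *Foxc1* was 0.61 (adjusted p = 0.000118). All these values rest on 2 libraries, with no statement that whole 1 and whole 2 came from separate litters. *Foxc2* fell by 0.90 on the log2 scale (SE 0.39, adjusted p = 0.0377), from 1.63 and 2.33 CPM to 0.671 and 1.39 CPM. Of the 6 genes that passed the filter, *Foxf1* was the 1 called higher distally, by 1.22 (SE 0.46, adjusted p = 0.0177), at 1.42 and 1.64 CPM against 0.699 and 0.635 CPM. *Foxd1* had a log2 fold change of -0.17 (SE 0.43, adjusted p = 0.759), and *Foxf2* and *Foxq1* did not pass the filter on low counts. *Foxf2* had 7 UMIs in distal and 0 in proximal cells of whole 1, and 17 and 2 in those of whole 2. Without the filter edgeR called it higher distally (3.08, SE 0.94, adjusted p = 0.00376), while DESeq2 did not (adjusted p = 0.16). *Foxq1*, with 10 and 4 UMIs in whole 1 and 7 and 6 in whole 2, was called by neither (adjusted p = 0.769 and 0.934). DESeq2 did not call *Foxc2* (adjusted p = 0.547) or *Foxf1* (adjusted p = 0.477), nor did edgeR with 1 UMI more to place a cell (adjusted p = 0.175 and 0.0545). Without the filter on low counts *Foxc2* was not called either (adjusted p = 0.0691). Distal cells were deeper (medians of 11530 and 10624 UMIs against 7773 and 7756) and 75.7% and 75.2% of them, against 48.5% and 52.5% of proximal cells, had 3 or more mitotic markers. Without these mitotic cells, the log2 fold changes were -4.34 for *Foxp2*, -3.15 for *Foxc1* and -1.93 for *Foxp1*.

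*Foxp4*, the remaining relative of *Foxp1* and *Foxp2* at 10 CPM or more, was lower distally as well, by -1.38 (SE 0.11, adjusted p = 1.71e-34 by edgeR). Of the 12 other forkhead genes tested, 2 were called higher and 3 lower, with a median log2 fold change of -0.03. Of 11 genes of hedgehog reception and response, 3 were called higher and 5 lower distally, among them *Gli1*, a transcriptional target of the pathway, by 2.06, and *Cdon*, a co-receptor, by -2.75. Among 7 neighbours of the forkhead genes on their chromosomes, 1 was called higher and 4 lower, with the largest difference, -1.95, at *Mdfic*, beside *Foxp2*, and -1.19 at *Gmds*, the next gene after *Foxc1*.

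Along the other axis, cells of whole 1 and whole 2 with a UMI of *Hand2* and none of *Alx4* (2073 and 2147 cells) were set against the reverse (220 and 200 cells). *Foxp1* was at 60.5 and 57.5 CPM in *Hand2* and 76.9 and 79.8 CPM in *Alx4* cells, a log2 fold change of -0.41 (SE 0.09, adjusted p = 0.000222). *Foxp2* fell by 0.52 on the log2 scale (SE 0.16, adjusted p = 0.0193), with 16.7 and 17.8 CPM in *Hand2* and 21.1 and 28.7 CPM in *Alx4* cells. *Foxc1* was higher in *Hand2* cells by 1.38 (SE 0.31, adjusted p = 0.000242), with 8.06 and 13.9 CPM against 5.49 and 2.61 CPM. edgeR called 10.9% of 12226 genes here and 3 of the 7 forkhead genes tested, with SEs and p-values that again rest on spread pooled over genes. DESeq2 called none of these 3 (adjusted p = 0.37, 0.991 and 0.386 for *Foxp1*, *Foxp2* and *Foxc1*), and without mitotic cells the *Foxp1* value was 0.079 (SE 0.18, adjusted p = 0.925), so the posterior to anterior differences rest on the setting. *Foxp4* fell by 0.67 (SE 0.16, adjusted p = 0.000719 by edgeR). Of the 11 hedgehog genes 3 were called higher and 5 lower, with *Gli1* at 3.41. Of 13 other forkhead genes 2 were called higher and 1 lower, and of 7 neighbours 1 and 0.

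Sorted E11.5 cells were then compared with whole limb mesenchyme of the same day, to ask how *Hic1*-descended cells differ from their neighbours. *Foxp1* was higher in the sorted library, by 1.07 (SE 0.09, adjusted p = 1.44e-29 by edgeR), *Foxp2* by 0.80 (SE 0.12, adjusted p = 9.67e-11) and *Foxc1* by 0.65 (SE 0.13, adjusted p = 4.67e-06) on the log2 scale. *Foxc2* was higher by 0.89 (SE 0.25, adjusted p = 0.00132), at 2.86 against 1.11 and 1.61 CPM. Both Foxf genes were lower in the sorted cells, *Foxf1* by -2.23 (SE 0.52, adjusted p = 7.72e-05) on 7 UMIs against 40 and 48, and *Foxf2* by -2.09 (SE 0.63, adjusted p = 0.00242) on 5 UMIs against 21 and 36. *Foxd1* (-0.13, SE 0.29, adjusted p = 0.721) and *Foxq1* (-0.01, SE 0.41, adjusted p = 0.986) did not pass. In all, edgeR called 53.4% of 15061 genes and 6 of the 8 forkhead genes, 4 higher and 2 lower. Of 18 other forkhead genes 6 were called higher and 3 lower, of 11 hedgehog genes 1 and 6, and of 8 chromosomal neighbours 3 and 1.

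The sorted library held few *Hoxa13*/*Hoxd13* cells, 0.758% of its cells against 22.7% and 20.8% of whole 1 and whole 2. With *Meis1*/*Meis2* cells on both sides, the *Foxp1* difference was 0.23 (adjusted p = 0.0927) and that of *Foxp2* 0.21 (adjusted p = 0.174), *Foxc2* was not called (0.74, adjusted p = 0.198) and *Foxc1* was called at 0.66 (adjusted p = 0.000693). *Foxf1* and *Foxf2* did not pass the filter on low counts there. In whole 1 and whole 2, *Foxf1* had 19 and 20 UMIs in *Hoxa13*/*Hoxd13* cells against 6 and 6 in *Meis1*/*Meis2* cells, and *Foxf2* 7 and 17 against 0 and 2. For these genes the sort and the position in the limb cannot be told apart. Without cells with 3 mitotic markers, *Foxc1* (0.13, adjusted p = 0.466) and *Foxc2* (0.38, adjusted p = 0.36) were not called, while *Foxp1* and *Foxp2* were, at 0.76 and 0.45. *Foxc2* and *Foxf2* were not called by DESeq2 (adjusted p = 0.21 and 0.14), and with no filter on low counts edgeR did not call *Foxc1*, *Foxc2* or *Foxf2* (adjusted p = 0.125, 0.119 and 0.113). With 1 sorted library and no statement that whole 1 and whole 2 came from separate litters, these p-values measure the spread between the 2 whole limb libraries.

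**Figure D2:**
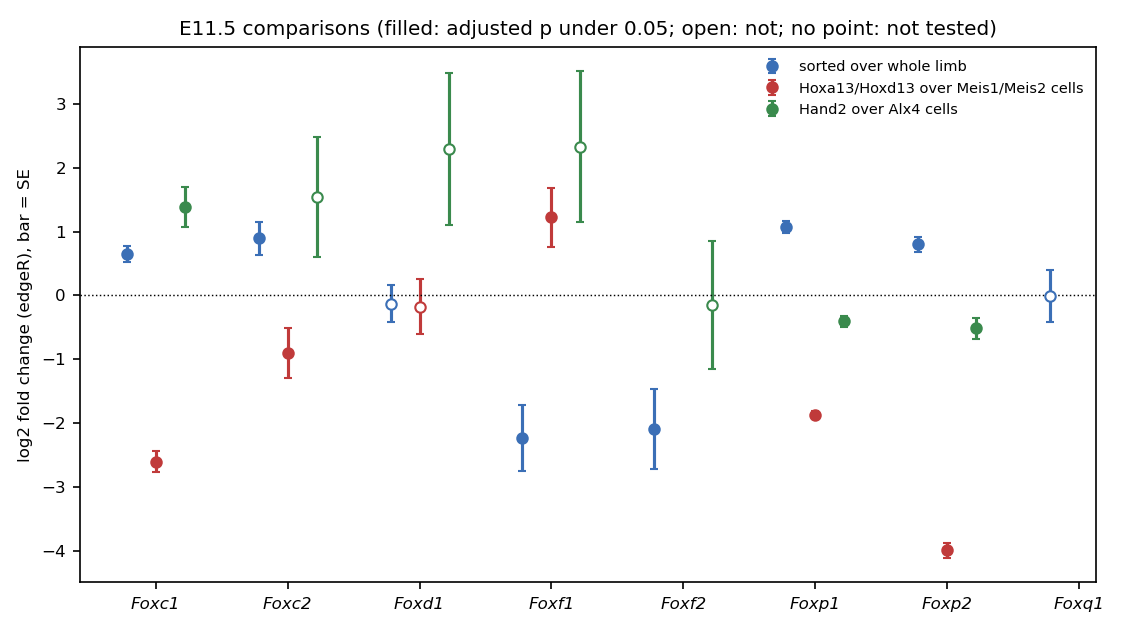
Log2 fold changes (y axis; bars are standard errors, edgeR) of the forkhead genes in 3 comparisons at E11.5, sorted over whole limb (blue, 1 against 2 libraries), *Hoxa13*/*Hoxd13* over *Meis1*/*Meis2* cells (red) and *Hand2* over *Alx4* cells (green, both paired in 2 libraries), filled where the adjusted p was under 0.05. *Foxp2*, *Foxc1* and *Foxp1* lie at -3.99, -2.60 and -1.87 in distal cells and above 0 in sorted cells.

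The ratio of *Hoxa13*/*Hoxd13* to *Meis1*/*Meis2* cells for *Foxp1*, *Foxp2* and *Foxc1* was then read with the same definition in every library, as a ratio with its counting interval. For *Foxp2* it was 0.0591 and 0.0635 in whole 1 and whole 2, 0.204 (0.0744 to 0.447) in sorted E11.5, 0.272 (0.201 to 0.361) at E12.5 and 0.777 (0.649 to 0.931) at E13.5. It was 2.60 (2.40 to 2.83) in the E14.5 library and 4.09 (3.49 to 4.82) in the distal segment. *Hoxa13*/*Hoxd13* cells thus had less *Foxp2* than *Meis1*/*Meis2* cells in all libraries up to E13.5 and more in these 2 later ones. *Foxp1* had a ratio of 0.273 and 0.261 in the whole limb libraries, ratios of 0.975, 0.902 and 1.17 in the 3 early sorted ones, 3.13 (2.98 to 3.29) in the E14.5 library and 4.57 (4.14 to 5.06) in the distal segment. The *Foxc1* ratio was 0.0945 and 0.233 in the whole limb libraries. In sorted E11.5 it was 0.152 (0.0183 to 0.555), on 2 UMIs in 24 *Hoxa13*/*Hoxd13* cells, and at E12.5 0.317 (0.147 to 0.615), on 10 UMIs in 117 such cells. It was 1.25 (0.952 to 1.65) at E13.5, 2.53 (2.23 to 2.88) in the E14.5 library and 18.3 (10.5 to 35.5) in the distal segment. In the E16.5 proximal library, where 59 cells met the *Hoxa13*/*Hoxd13* definition, the ratio was 0.794 for *Foxp1*, 0.879 for *Foxp2* and 2.18 (1.45 to 3.15) for *Foxc1*. Levels moved on both sides: *Foxp2* in *Hoxa13*/*Hoxd13* cells was at 3.73 CPM in whole 1, 34.3 at E12.5 and 98.2 CPM at E16.5 distal, and in *Meis1*/*Meis2* cells at 63.0, 126 and 24.0 CPM. In the distal segment both sets come from that segment, the *Meis1*/*Meis2* set is 308 cells (3.68%) with 12 *Foxc1* UMIs, and *Foxd1* was at 41.1 CPM in it against 5.79 CPM in *Hoxa13*/*Hoxd13* cells, so the sets differ in their make-up there. Between the segments themselves the *Foxc1* ratio was 1.34. Whole limb and sorted E11.5 share stage and kit, and the sorted libraries from E11.5 to E13.5 share kit and sort. Stage and the kinds of cells in the sets change together along the sorted series, and the kit changes with them after E13.5. Their parts cannot be told apart there, and the difference between ratios was not tested.

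**Figure D3:**
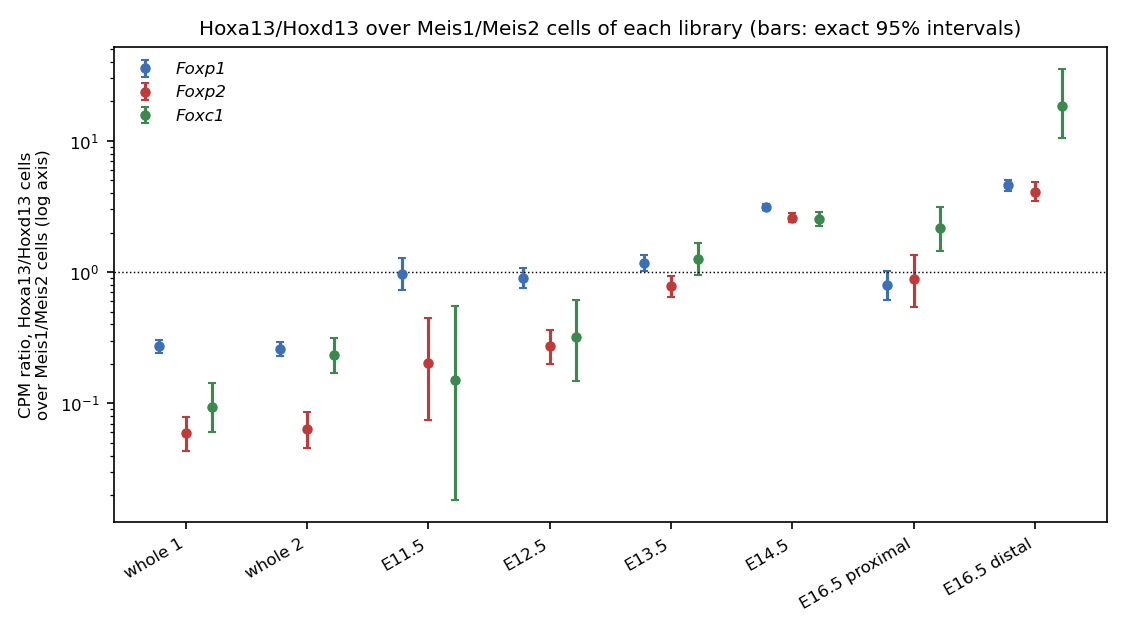
Ratio of CPM (log axis) in *Hoxa13*/*Hoxd13* over *Meis1*/*Meis2* cells for *Foxp1* (blue), *Foxp2* (red) and *Foxc1* (green) in each library, with exact 95% intervals for counting error as bars and equality as a dotted line. All 3 genes lie below 1 in both whole limb libraries and above 1 at E14.5 (3.13, 2.60 and 2.53) and E16.5 distal (4.57, 4.09 and 18.3, the last on 12 UMIs in *Meis1*/*Meis2* cells).

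Across stages within 1 kit, *Foxc2* was more than 2-fold higher at E13.5 than at E11.5 and *Foxd1* more than 2-fold lower, while *Foxp2* did not reach 2-fold. The E13.5 to E11.5 ratio was 3.89 (3.11 to 4.93) for *Foxc2*, 1.86 (1.75 to 1.97) for *Foxp2* and 1.35 (1.23 to 1.47) for *Foxc1*. *Foxd1* was 4.80-fold lower (2.65 to 9.21), on 15 UMIs against 50, and *Foxp1* was at 0.857 of its E11.5 level. Of 13581 genes with 50 or more UMIs in both libraries together, 15.1% differed by 2-fold or more in either direction, as did 2 of the 6 forkhead genes that met this minimum. *Foxf1* (5 and 7 UMIs) and *Foxf2* (28 and 5 UMIs) did not meet it. None of the 11 hedgehog genes differed 2-fold, and 1 of 8 chromosomal neighbours, *Irf8*, was higher. Of 15 other forkhead genes counted, 2 were higher and 2 lower, among the latter *Foxm1*, a cell cycle regulator, at 8.13 against 16.9 CPM.

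At E13.5 *Foxc2* was highest in an unnamed cluster led by *Wwp2* and *Sox6*, genes of early cartilage, with 28.8 CPM (1384 cells) against 6.21 CPM at E12.5 (571 cells). The same cells held 60.1 and 60.8 CPM of *Foxc1* and 208 and 181 CPM of *Foxp2* at E12.5 and E13.5, the highest *Foxp2* levels of any cluster at these stages.

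Between E14.5 and E16.5 proximal, 7 of the 8 genes differed by 2-fold or more, beside 20.3% of 16162 genes. *Foxd1* was 7.75-fold (6.73 to 8.97) and *Foxf1* 4.41-fold (3.08 to 6.49) higher at E16.5 proximal. *Foxf2* was 6.39-fold (4.81 to 8.61), *Foxq1* 5.30-fold (4.34 to 6.496), *Foxp2* 3.77-fold (3.63 to 3.92), *Foxp1* 3.25-fold (3.18 to 3.33) and *Foxc1* 2.04-fold (1.95 to 2.14) lower. *Foxc2* had a ratio of 0.711 (0.636 to 0.796). The E14.5 library came from the entire forelimb and the E16.5 one from the proximal segment, so stage and part of the limb cannot be told apart. The median gene had a log2 ratio of -0.17, and scaling by TMM moved it to 0.05, turned the split of 2-fold genes from 1456 higher and 1830 lower to 1900 and 1257, and left *Foxc1* at 0.572, short of 2-fold. With epithelial cells kept, the *Foxq1* ratio was 0.944. None of the 11 hedgehog genes differed 2-fold, and among 18 other forkhead genes 3 were higher and 3 lower, led among those at 10 CPM by *Foxa3* (12.99 against 1.64 CPM) and *Foxn3* (58.6 against 124 CPM). Of 10 chromosomal neighbours 1, *Irf4*, was higher.

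The 2 segments of E16.5 share stage and kit. *Foxf2* was 10.7-fold (8.18 to 14.2), *Foxq1* 5.96-fold (4.92 to 7.27), *Foxp2* 3.95-fold (3.80 to 4.10) and *Foxp1* 3.30-fold (3.23 to 3.37) higher distally. *Foxc2* was 2.18-fold (1.88 to 2.545) higher proximally. *Foxc1* had a distal to proximal ratio of 1.34 (1.27 to 1.40), *Foxd1* of 1.08 (1.02 to 1.14) and *Foxf1* of 0.618 (0.489 to 0.777). Thus 5 of 8 genes differed 2-fold, beside 14.1% of 16263 genes, which divided into 1354 higher and 944 lower distally (1153 and 1070 with TMM scaling). The proximal library is shared with the preceding comparison, so the large ratios of *Foxf2*, *Foxq1*, *Foxp1* and *Foxp2* in both rest in part on the same low values. With epithelial cells kept, 3 of 8 genes differed 2-fold, since the *Foxq1* ratio was then 1.19 and that of *Foxc2* 0.528.

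The segments were also compared within clusters. Over the 12 clusters that had 50 or more cells in each segment, weighted equally, the distal to proximal ratio was 5.38 for *Foxf2*, 2.73 for *Foxq1*, 2.20 for *Foxp2* and 1.80 for *Foxp1*, and 0.996 for *Foxd1*. Single clusters differed for *Foxd1*, with an interval above 1 in 1, below 1 in 3 and holding 1 in 8. For *Foxf1* the ratio was 0.948, with an interval below 1 in 1 cluster and one that held 1 in 11. For *Foxc2* it was 0.639, short of 2-fold, with an interval below 1 in 2 clusters and one that held 1 in the other 10. These clusters held 35.4% of the distal and 79.2% of the proximal cells. The *Foxp2* interval lay above 1 in 8 of the 12 clusters and that of *Foxp1* in 7, below 1 in 0 and 1. For *Foxf2* it lay above 1 in 4 clusters and below in 0, and for *Foxq1* above 1 in 3 and below in 1, and in 8 of the 12 clusters the interval held 1 for each of these genes. *Foxq1* was lower distally (0.451, 0.220 to 0.963) in the unnamed cluster led by *Fhod3*, with 821 distal and 227 proximal cells. In mitotic-like cells led by *Nusap1* (463 distal and 1045 proximal) *Foxp2* was at 76.7 against 12.6 CPM and *Foxp1* at 208 against 47.9 CPM. This cluster is named by mitotic markers, so it may pool different kinds of cells in each segment, which was not tested. In tenocyte-like cells led by *Cilp*, *Foxp1* was at 168 against 96.1 CPM. In the unnamed cluster led by *Acta1*, by contrast, *Foxp1* was at 26.7 and 28.3 CPM. Of 11 hedgehog genes 3 were 2-fold higher distally, *Ptch1* (50.7 against 21.5 CPM), *Gli3* (57.3 against 25.6 CPM) and *Cdon*, with a median log2 ratio of 0.68 over the list and 0.10 over all genes. Of 18 other forkhead genes none was higher and 2 were lower, *Foxa3* (3.06 against 12.99 CPM) and *Foxr1*. *Foxp4* was at 37.4 and 24.2 CPM. Of 10 chromosomal neighbours 1 was higher, the non-coding *Fendrr* (0.956 against 0.337 CPM), whose start lies 1276 bases from that of *Foxf1*.

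By cell type, *Foxd1* at E16.5 was highest in the same cluster in both segments. A dermal fibroblast-like cluster led by *Gal*, *Sox2* and *Sox18*, of 125 proximal and 93 distal cells, had 439 CPM (408 to 472) and 475 CPM (440 to 512) of *Foxd1*. At 3000 UMIs per cell 64.0% and 73.1% of its cells had a *Foxd1* UMI, against 0.164% of the epithelial-like cells led by *Calm4*, whose median depth was 46140 UMIs. An unnamed cluster led by D630033O11Rik and *Ccl11* followed with 108 CPM proximally and 58.9 CPM distally. A mitotic-like cluster led by *Hist1h2ap* (342 proximal and 327 distal cells) had 31.2 CPM proximally and 58.05 CPM distally. Other dermal fibroblast-like cells were lower, at 17.5 and 6.83 CPM in the cluster led by *Rspo1*, and an unnamed cluster led by *Acta1*, a muscle actin, was at 0.635 and 0.835 CPM. These values depend on the clustering. At the coarser one the *Gal* cells were apart in neither segment, and *Foxd1* was then highest proximally in the pericyte-like cluster (66.8 CPM) and distally in a dermal fibroblast-like cluster of 356 cells led by *Rspo1* (106 CPM). That coarser pericyte-like cluster, with *Ccl11* among its leading genes, held 617 *Foxd1* UMIs proximally. In the main clustering the D630033O11Rik cluster held 605 proximally, and the pericyte-like cluster led by *Rgs5* held 12 (3.27 CPM). In dermal fibroblast-like cells called by 3 markers without clusters it was at 50.2 and 54.6 CPM. These clusters did not hold all of the *Foxd1* RNA, since the *Gal* cluster had 724 of the 2423 *Foxd1* UMIs of the proximal library and 678 of the 2059 of the distal one. In the clustering of the time course, the dermal fibroblast-like cluster of E14.5 (926 cells, led by *Calb1*) had 0.841 CPM (0.448 to 1.44) and the one that held most dermal cells of the proximal segment (1141 cells, led by *Col7a1*) 54.3 CPM (51.1 to 57.7). Stage, part of the limb and cluster differ together here and cannot be told apart.

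*Foxf1* and *Foxc2*, the neighbours on chromosome 8, were highest in the same cells. The pericyte-like cluster led by *Rgs5* (160 proximal and 66 distal cells) had 24.0 and 26.5 CPM of *Foxf1* and 31.4 and 23.6 CPM of *Foxc2*, and the intervals of the segments overlapped for either gene. The unnamed cluster led by D630033O11Rik and *Ccl11* had 10.75 CPM of either gene proximally, and 5.89 CPM of *Foxf1* and 3.53 CPM of *Foxc2* distally. In epithelial cells led by *Calm4* both genes were at 0.036 CPM. The pericyte-like class stayed the highest for both genes at coarser and finer clustering and when cells were called by 3 markers without clusters. The levels depended on the clustering, since at the coarser one the pericyte-like cluster had 18.9 and 10.3 CPM of *Foxc2* and 16.03 and 12.9 CPM of *Foxf1* in the proximal and distal segments. *Foxc2* was in addition at 15.5 CPM in proximal chondrocyte-like (led by *Matn1*, 975 cells) and in perichondrial- and osteogenic-like cells (203 cells), where *Foxf1* was at 0.341 and 1.55 CPM.

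*Foxc1* was highest in cartilage and its surroundings. Proximally the perichondrial- and osteogenic-like cluster had 94.9 CPM (84.6 to 106) and the chondrocyte-like cluster 79.4 CPM (75.3 to 83.7). Distally an unnamed cluster led by *Sema3e* and *Cytl1* (397 cells), in which 9 of 11 chondrocyte markers were raised, had 166 CPM (156 to 175). The last cluster also had the highest *Foxp2* level at E16.5, 253 CPM (241 to 265), with 464 CPM of *Foxp1* and 9.99 CPM of *Foxc2*. In proximal chondrocyte-like cells *Foxp2* was at 42.0 and *Foxp1* at 107 CPM. Cartilage-associated cells of whole 1 and whole 2 at E11.5 were also the highest in *Foxc1*, at 50.4 and 75.1 CPM in a chondrocyte-like cluster led by *Fxyd3*, where a distal cluster led by *Tfap2b* had 0.644 and 2.91 CPM.

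*Foxp1* reached its highest level, 652 CPM (638 to 667), in an unnamed distal cluster of 808 cells led by *Btc*, *Lrp1b*, *Lhx9* and *Msx1*. *Foxq1* (23.2 CPM, 20.6 to 26.2) and *Foxf2* (11.7 CPM, 9.87 to 13.9) were also at their mesenchymal highest there, with 159 CPM of *Foxp2* and 60.7 CPM of *Foxc1*. At E14.5 a cluster led by *Msx1* and *Hoxd13* (848 cells) held all 5 genes as well, at 492 CPM of *Foxp1*, 137 CPM of *Foxp2*, 69.6 CPM of *Foxc1*, 17.8 CPM of *Foxq1* and 11.3 CPM of *Foxf2*. The place of *Foxf2* depended on the clustering, and no alternative kept it in the *Btc* cluster. At the coarser resolution it was highest distally in the mitotic-like cluster led by *Hist1h2ap* (10.4 CPM). At the finer resolution it was highest in dermal fibroblast-like cells (15.5 CPM), as it was with cells called by 3 markers (6.77 CPM). For *Foxq1* the highest distal clusters of the coarser and finer clustering overlapped the *Btc* cluster, and the level was 15.8 and 29.3 CPM. With cells called by 3 markers, *Foxq1* was highest distally in the fibrogenic progenitor-like class (6.26 CPM). *Foxp1* was then highest distally in the chondrocyte-like class (413 CPM). Distal dermal fibroblast-like cells led by *Sp9* had 6.05 CPM of *Foxf2* and 5.88 CPM of *Foxq1*. *Foxf2* and *Foxq1* were seen in the same cell in 22 of 8379 distal cells at 3000 UMIs, where the product of their shares gives 1.12 cells. Since cells of the same cluster share both genes, this count describes the pooled library. *Foxp1* and *Foxp2* met in 795 distal cells, against 491 by the product.

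*Foxq1* alone of the 8 genes had an interval in the epithelial-like cells led by *Calm4* and *Krt1* that overlapped that of its highest mesenchymal cluster. These 610 cells of the proximal library had 22.3 CPM (20.6 to 24.1) of *Foxq1*, 71.6 CPM of *Foxp1*, 1.08 CPM of *Foxp2* and 0.684 CPM of *Foxc1*. An unnamed cluster led by *Krt14* had 1.73 CPM of *Foxq1* and 109 CPM of *Foxp1*. With cells called by 3 markers, epithelial-like cells included, *Foxq1* was highest proximally in the perineurial-like class (505 cells, 20.6 CPM). That class held 414 *Foxq1* UMIs, whereas all 10173 proximal cells outside epithelial-like clusters held 128. Most of its *Foxq1* UMIs thus came from cells of epithelial-like clusters, and the value does not place *Foxq1* in perineurial cells.

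**Figure D4:**
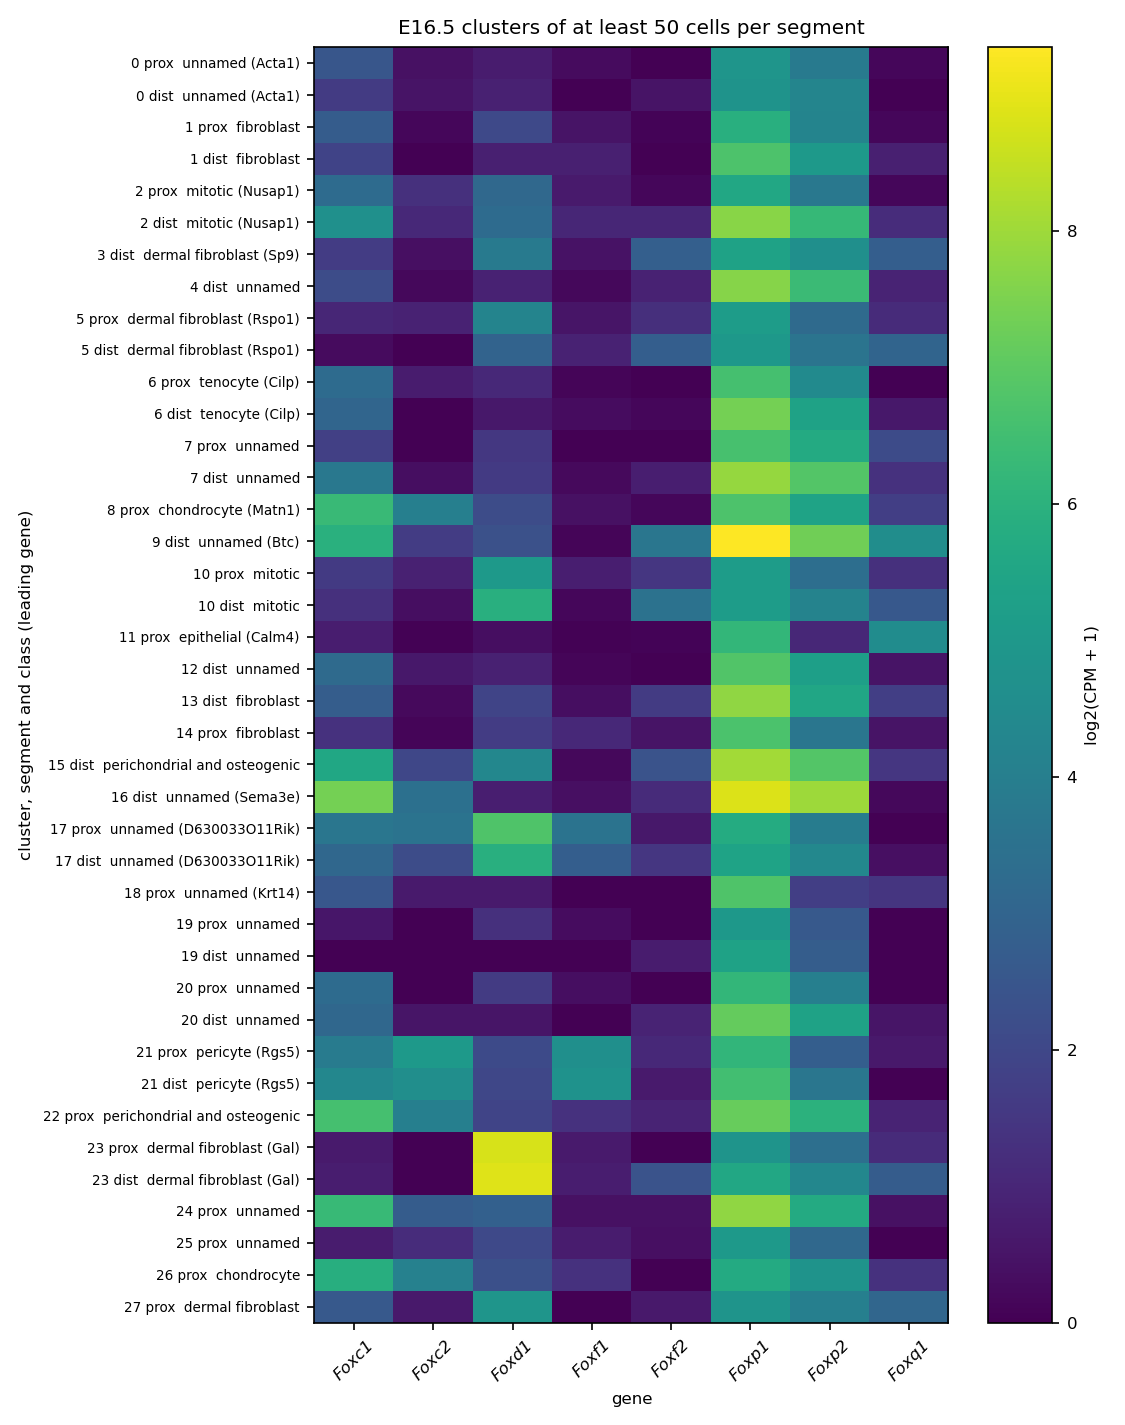
Levels of the 8 forkhead genes, as log2(CPM + 1) by colour, in the E16.5 clusters with 50 or more cells in a segment (rows, 40 in all, with cluster number, segment and class, and the leading gene of the clusters described by it). *Foxd1* stands out in the cluster led by *Gal* in both segments (439 and 475 CPM), *Foxf1* and *Foxc2* in the pericyte row, *Foxc1* in cartilage-associated rows and *Foxp1* in the distal cluster led by *Btc* (652 CPM).

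Over the 40 cluster and segment points, which share 2 libraries and their depths, Pearson's r of log2(CPM + 1) was 0.74 between *Foxp1* and *Foxp2*, 0.73 between *Foxc1* and *Foxc2*, 0.68 between *Foxc2* and *Foxf1* and 0.56 between *Foxf2* and *Foxq1*. Between the neighbours *Foxf2* and *Foxc1* it was 0.01. Among 11299 genes, the most alike was *Foxs1*, another forkhead gene of pericytes, for *Foxf1* (0.93), *Acan*, a cartilage proteoglycan, for *Foxc1* (0.81), *Fabp7* for *Foxc2* (0.82), *Pnma2* for *Foxd1* (0.87), *Sp9* for *Foxf2* (0.80), *Ltbp3* for *Foxp2* (0.88), *Clcn3* for *Foxq1* (0.74) and, for *Foxp1*, the overlapping Gm20696 (0.88), followed by *Palmd* (0.84) and *Bmpr1b* (0.80). Next came *Unc5c* and *Mgp* for *Foxc1*, *Kcna6* and *Efhd2* for *Foxc2*, *Adamts20* for *Foxd1*, *Itga7* and *Slc11a1* for *Foxf1*, *Nol3* and *Lmna* for *Foxf2*, *Fgf2* and *Fndc3a* for *Foxp2*, and *Htr1b* and *Wnt4* for *Foxq1*.

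Of 36 other forkhead genes 12 reached 10 CPM in a library. *Foxn3* was at 58.6 to 124 CPM, *Foxp4* at 17.9 to 50.3, *Foxo1* at 17.4 to 55.8, *Foxo3* at 22.8 to 44.0 and *Foxo4* at 11.3 to 42.4 CPM. *Foxn2* (12.7 to 39.4), *Foxj3* (15.9 to 29.3), *Foxk2* (14.5 to 23.9) and *Foxm1* (6.92 to 19.0 CPM) varied less than 4-fold, as did *Foxj2* (4.61 to 16.8) and *Foxk1* (6.89 to 11.3 CPM). *Foxa3* alone of the 12 was absent or nearly so early, with 0 UMIs at E11.5, which allows up to 0.0952 CPM, and 12.99 CPM at E16.5 proximal. Of the chromosomal neighbours, *Btf3* was at 908 to 1639 CPM, *Rybp* at 28.9 to 77.7, *Gmds* at 29.2 to 61.3 and *Mdfic* at 6.23 to 25.9 CPM. *Mthfsd* (9.02 to 23.3), *Exoc2* (8.28 to 13.1) and *Dusp22* (5.24 to 11.4 CPM) were lower, and *Irf8*, *Fendrr* and *Irf4* did not pass 4.86 CPM.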

How the data were processed

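The data were droplet single-cell RNA sequencing (10x Genomics, 3′ ends) of 8 mouse forelimb libraries. The deposited values are raw UMI counts per gene and cell that the authors made with Cell Ranger on a modified mm10 genome with the transgenes added. Use of strand in the counting is not given in the sources used here. The authors' filters (low UMIs, high mitochondrial share, epithelial cells at E16.5) were rebuilt from the counts with 3000 UMIs and 10% as limits, and every column of values was used (0 left out). The 8 genes and all lists were chosen with earlier results of these data known.

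Cells were clustered in Python 3.11.15 with scanpy 1.11.5 and leidenalg 0.10.2 (2000 variable genes without forkhead genes, 50 components, 25 neighbours, resolution 1, alternatives 0.5 and 2), and a class needed 3 or more of its markers raised. A cluster stayed unnamed where its 10 leading genes held more markers of another class, or none of its own with under 50% of its markers raised, where a myogenic cluster lacked myogenic factors, or where low depth came with no marker among the leading genes. This rule was completed after the clusters were seen, and it left clusters such as that led by *Sema3e* unnamed. Scrublet called 0 to 5 doublets per library and was taken not to have worked, so cells with the highest scores were left out as an alternative. UMIs were summed over cells. Where a group had 2 libraries, sums were tested with edgeR 4.0.16 (quasi-likelihood, TMM, filterByExpr, Benjamini-Hochberg over all genes tested, threshold 0.05) in R 4.3.3, with DESeq2 1.42.0 and limma 3.58.1 as alternatives. In simulated counts 91% (15061 genes, sorted against whole), 96% (12252 genes, distal against proximal) and 89% (12226 genes, posterior against anterior) of 200 genes changed 4-fold were recovered. In these last 2 comparisons both sums of a library come from the same suspension, which is the pairing behind the block. With 1 library per group, ratios of CPM have exact 95% intervals for counting error and no test, a difference means 2-fold or more at 50 or more UMIs together, and a count of 0 is given the limit of 3 counts. Shares of cells were read after thinning to 3000 UMIs. E14.5 was not compared with E13.5, since the kit changed.

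Named genes were the 8 members, other forkhead genes at 10 CPM or more in a library, the 2 hedgehog genes that differed most, chromosomal neighbours, and for likeness the 3 genes with the highest r. Others, such as *Cdon* and *Foxr1*, were named after their values were seen. Some genes that the rule names are not reported here.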

Additional observations from a re-analysis of the deposited data

Results flagged for a closer look

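The ratio of *Hoxa13*/*Hoxd13* to *Meis1*/*Meis2* cells within the E16.5 distal segment was 18.3 for *Foxc1*, 4.57 for *Foxp1* and 4.09 for *Foxp2*, while both whole limb libraries of E11.5 had ratios below 1, so the direction was opposite. The difference between them was not tested. The *Foxc1* value rests on 12 UMIs in 308 *Meis1*/*Meis2* cells, which had 41.1 CPM of *Foxd1* against 5.79 CPM in *Hoxa13*/*Hoxd13* cells, and the *Foxc1* ratio between the segments was 1.34. *Foxq1* was at 22.3 CPM in the E16.5 proximal epithelial-like cluster led by *Calm4*, which the library levels leave out.

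The myogenic-like cluster led by *Myog*, also outside the library levels, had 12.9 CPM of *Foxd1* in whole 1 and 18.0 CPM in whole 2. *Foxf1* was at 12.7 and 15.15 CPM in the same cells. Thus these muscle precursors held more of both genes than the mesenchyme of the same libraries, where *Foxd1* was at 1.44 and 1.65 CPM and *Foxf1* at 0.857 and 1.02 CPM. No group had the 4 samples needed to look for a sample that stands apart.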

How the results depend on the processing

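For sorted against whole limb, 8043 genes were called, against 4863 by DESeq2, 4350 with no filter on low counts and 3996 with *Meis1*/*Meis2* cells on both sides. For distal against proximal cells the 6609 calls became 2785 with DESeq2, and 4920 without the replicate block. For *Hand2* against *Alx4* cells the 1332 calls became 330 with DESeq2, 531 with no replicate block, 201 with 1 UMI more to place a cell and 195 without mitotic cells, where the log2 fold change of *Foxp1* turned from -0.41 to 0.079. Without the block *Foxc2* (adjusted p = 0.082 by edgeR) was not called distally, nor *Foxc1* (0.153) and *Foxp2* (0.173) along the *Hand2* axis. The E13.5 to E11.5 comparison had 1 gene past 2-fold in place of 2 after thinning to 3000 UMIs and 1 without mitotic cells, since *Foxd1* fell short of 50 UMIs. The distal to proximal segment comparison had 3 in place of 5 with epithelial-like cells kept. The causes of the other changes were not tested. Leaving out a whole limb replicate left no residual degrees of freedom, so those fits gave values with no test. Of the fold changes of single genes, 85, 33 and 28 were counted as unchanged in the 3 tests, and 10, 6 and 10 were no longer called. Unchanged meant the same side of the threshold, and a change of direction was allowed where neither fit called the gene. Values without a replicate, which had no test, were counted as unchanged when within the standard error of the main value. Settings without mitotic cells in the last 2 tests, with *Meis1*/*Meis2* cells on both sides and without the highest doublet scores were chosen after seeing the data. *Foxf1*, *Foxf2* and *Foxq1*, with 5 to 48 UMIs in E11.5 libraries, are limited by depth.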
